A study of Mus musculus with 6 samples.

Results

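The Bcl2 family decides whether a cell keeps its mitochondria intact or releases cytochrome c and dies. Survival proteins (Bcl2, Bcl-xL, Mcl1) hold the pore-forming effectors Bax and Bak in check, and the BH3-only proteins (Bim, Puma, Noxa, Bid, Bad) are killers that bind the survival proteins or activate the effectors directly. In blood stem cells Mcl1 is known to be required for survival, and cytokine signals, p53 and FoxO factors are known to act through the BH3-only genes. The 10 family genes described here were Bcl2, Bcl2l1 (the gene of Bcl-xL), Mcl1, Bax, Bak1, Bcl2l11 (Bim), Bbc3 (Puma), Pmaip1 (Noxa), Bid and Bad. They were taken as every probe set of the array whose single annotated gene symbol was one of these names. That gave 29 probe sets for 9 of the 10 genes, among 18193 genes with a single-symbol probe set, and Bax was not analysed here.

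The arrays measured hematopoietic stem cells from the bone marrow of C57Bl/6 (CD45.1) male mice of 10 weeks. Cells negative for lineage markers and positive for Sca-1 and c-Kit were sorted from the lower part (Lower-SP) or the upper part (Upper-SP) of the side population, the gate of cells that export a DNA-binding dye. Each fraction has 3 arrays, and per the labels the cells came from pools of mice sorted on separate days, so the spread between arrays is a spread between pools. The labels give no treatment or genetic change in either group. The number of arrays limits the precision.

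All values are log2 expression summarized by the authors with GCRMA, and a difference is always Lower-SP minus Upper-SP on that log2 scale. A probe set was tested where at least 3 of the 6 arrays read above log2 4, and it was called changed when its limma p, adjusted over all 19613 tested probe sets, lay under 0.05. Stem cell markers were present: all 9 annotated ones, among them Kit, Procr and Abcg2, read above log2 4 on every array. Of these 9, read through the brightest probe set, Kit (-0.92) and Abcg2 (-1.04) fell in Lower-SP. Of the progenitor markers Flt3 (-2.22) and Cd34 (-1.41) fell too. Kit did not pass at its other probe set (-0.04). The stem cell marker Hlf was called lower at 1434735_at (-2.03) but not at its brightest probe set (0.007). Of the 9 annotated neutrophil markers, 4 read above log2 4 on every array and 1 under it on every array. Their mean was 8.78, 8.33 and 5.17 for Lower-SP arrays 1, 2 and 3 and 3.86 to 5.02 for Upper-SP, so results are also given with Lower-SP arrays 1 and 2 left out. That leaves 1 Lower-SP array (array 3), assumed to vary like the Upper-SP arrays, and its neutrophil mean still lay above those of Upper-SP. All 4 annotated erythroid markers and 5 of 6 T/NK markers lay under log2 4 on every array. The progenitor list averaged 4.89 to 5.40 in Lower-SP against 5.85 to 6.06 in Upper-SP, and the B and plasma cell list averaged 3.85 to 5.36 in Lower-SP against 5.65 to 6.00 in Upper-SP. The part of these other cells in the results was not tested, and in bulk samples a smaller share of a cell type and less RNA per cell cannot be told apart.

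Transcript of the killer gene Bbc3 fell in Lower-SP by 3.17-fold at its only probe set. That of the killer gene Bcl2l11 fell by 3.68-fold and 4.42-fold at the probe sets 1435448_at and 1456006_at, but not at its brightest probe set (difference 0.01). Those of the survival genes Bcl2 and Mcl1 fell by 1.96-fold and 1.58-fold at 1 probe set each. Of the 29 family probe sets 19 were bright enough to test, and they cover 7 genes. Among these 19, 6 fell in Lower-SP (31.6%, beside 17.5% of all tested probe sets) and 0 rose (beside 10.7% of all). One of the 6, 1435449_at of Bcl2l11, lay under log2 4 on all Lower-SP arrays and so could be tested only because Upper-SP was higher. Among the 18 read above log2 4 in both fractions 5 fell (27.8%, beside 17.2% of all such probe sets). At an unadjusted p under 0.05 the counts over the 19 were 7 lower and 0 higher. The 6 lie in 4 genes: 3 in Bcl2l11 and 1 each in Bbc3, Bcl2 and Mcl1. The median difference of the 19 was -0.22, beside -0.14 for all tested probe sets. Read through 1 probe set per gene, the brightest, only Bbc3 of the 7 genes fell and 0 rose (limma; 2 lower and 0 higher at an unadjusted p under 0.05), beside 20.7% of all 9460 tested genes lower and 7.05% higher (27.7% in either direction). By these probe sets 2 genes (Bbc3 and Bcl2) were lower without overlap of the groups and 1 (Bcl2l1) higher, beside 32.3% and 13.4% of all genes. The count of 6 depended on Upper-SP arrays 1 and 2: it was 1 of 18 without the first and 2 of 18 without the other, against 5 of 18 without Upper-SP array 3. Without Upper-SP array 1 or 2 the share of all tested probe sets called in either direction also dropped, from 28.1% to 8.29% or 13.0%. It was 3 of 19 without Lower-SP arrays 1 and 2 (all probe sets 13.7%).

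**Figure D1:**
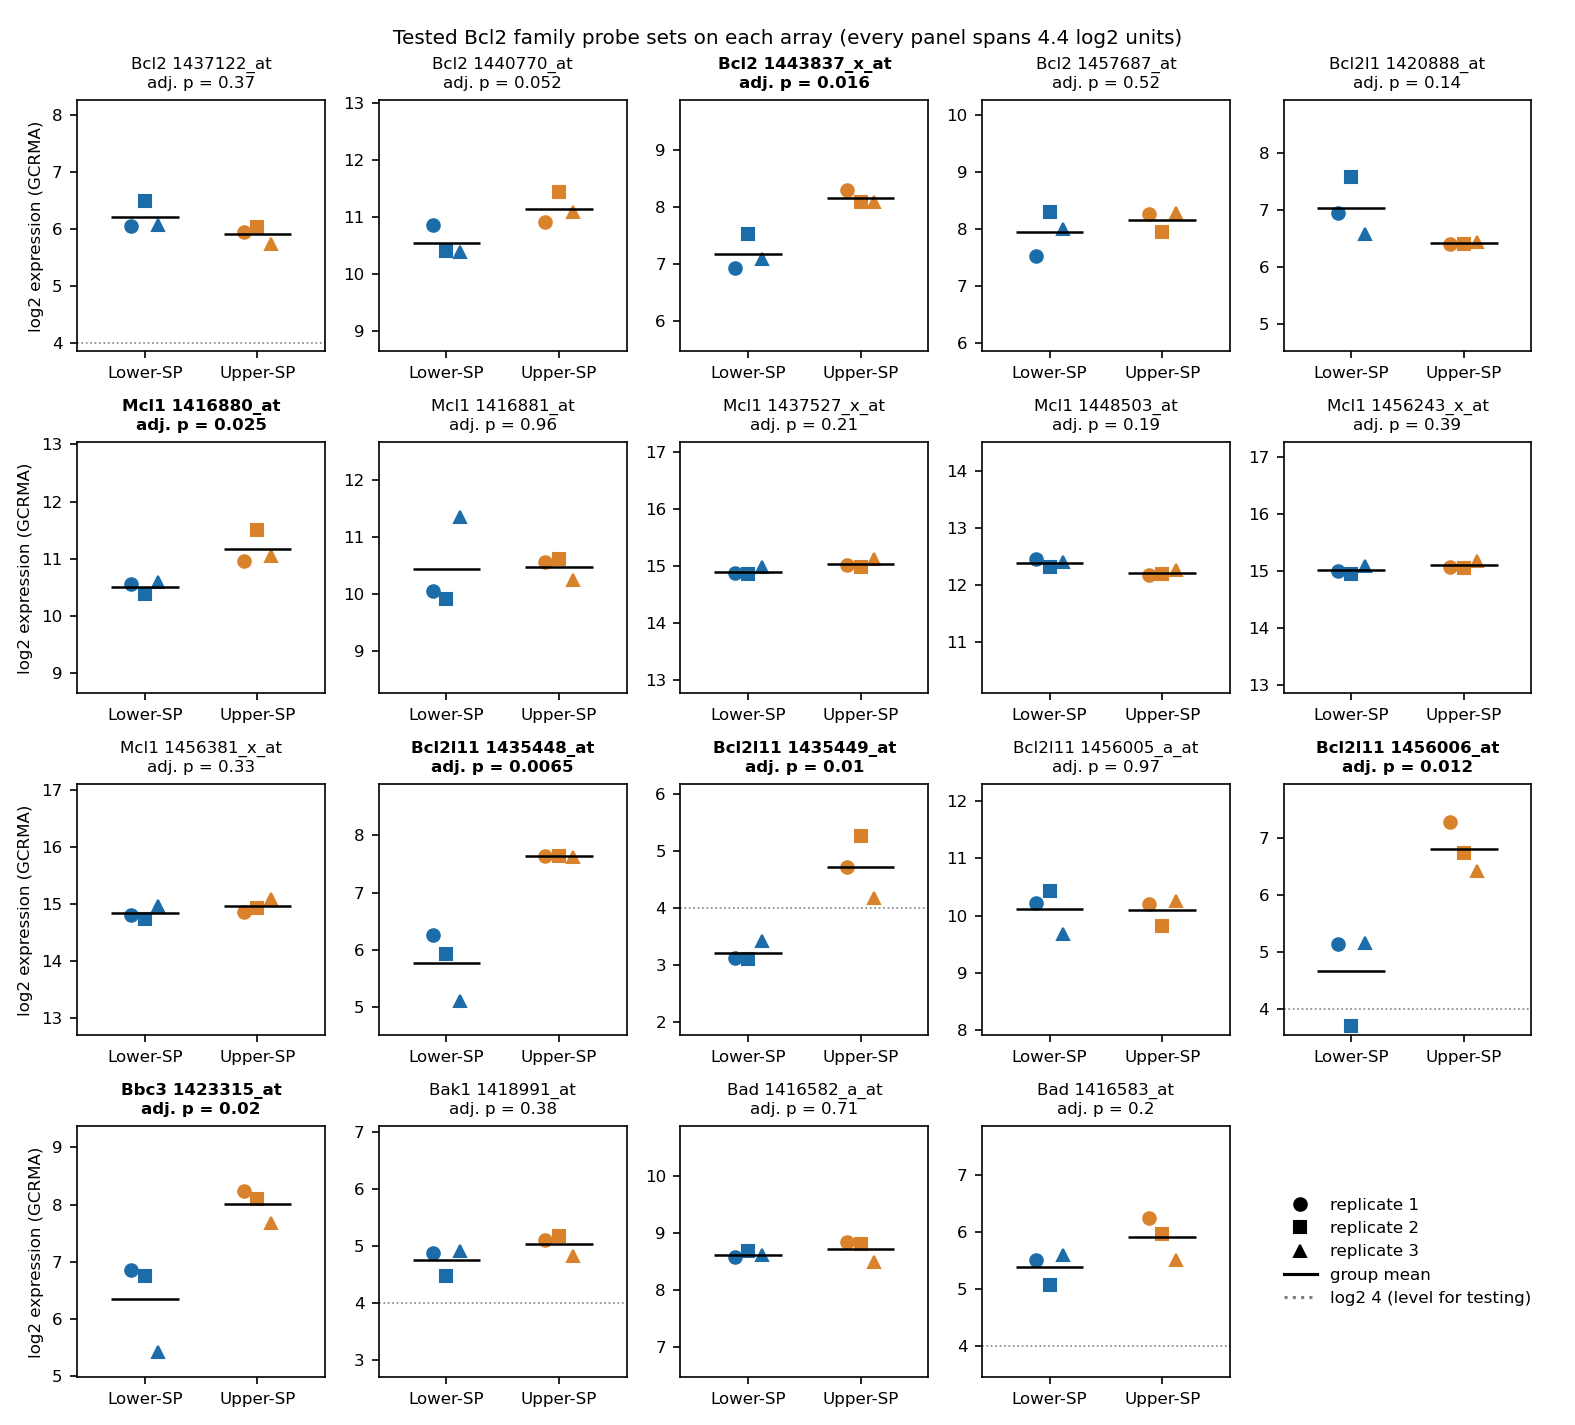
Log2 expression of the 19 tested family probe sets on each array, Lower-SP in blue and Upper-SP in orange, with a symbol per replicate, a black bar for the group mean and a dotted line at log2 4; titles in bold mark adjusted p under 0.05. The Bcl2l11 and Bbc3 panels in bold show all Lower-SP values under all Upper-SP values, while 3 of the Mcl1 panels sit near log2 15 on every array.

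Bcl2l11 encodes Bim, the BH3-only protein that binds every main survival protein and links loss of cytokine signals to death. Its probe set 1435448_at read 6.26, 5.92 and 5.09 in Lower-SP and 7.64, 7.64 and 7.63 in Upper-SP. All 3 Lower-SP values lay under all 3 Upper-SP values, which were nearly equal. The means were 5.76 ± 0.60 and 7.64 ± 0.008 (SD, n = 3), a difference of -1.88 (SE 0.31, 3.68-fold, adjusted p = 0.0065). This call was kept in 19 of 20 alternative analyses, with each single array left out among them. It was lost with unmoderated statistics (adjusted p = 0.052, the highest of a range that starts at 0.00021). With Lower-SP arrays 1 and 2 left out the difference was -2.54.

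The probe set 1456006_at read 5.14, 3.70 and 5.16 in Lower-SP and 7.28, 6.74 and 6.42 in Upper-SP. The groups did not overlap, and the difference was -2.15 (SE 0.44, 4.42-fold, adjusted p = 0.012, range over the alternatives 0.00029 to 0.083). Lower-SP array 2 lay under log2 4, and with values under 4 set to 4 the difference was -2.04. The call was lost without Upper-SP array 1 (-1.91) and without Lower-SP arrays 1 and 2 (-1.65). The dimmer probe set 1435449_at lay under log2 4 on all Lower-SP arrays (3.12, 3.12 and 3.42) and above it on all Upper-SP arrays (4.72, 5.26 and 4.18). It entered the test only through Upper-SP, so its difference of -1.50 (adjusted p = 0.010) is a description, a fold of at least 1.65 once Lower-SP is set to log2 4.

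The brightest Bcl2l11 probe set, 1456005_a_at, did not follow them. It read 10.2, 10.4 and 9.67 in Lower-SP and 10.2, 9.82 and 10.3 in Upper-SP, with overlapping groups and a difference of 0.01 (95% interval -0.50 to 0.53, adjusted p = 0.97). The annotation names it by the same sequence record, BB667581, as 1456006_at, whose difference was -2.15. Its sign turned with single arrays left out, from -0.15 without Lower-SP array 2 to 0.23 without Lower-SP array 3. The fifth probe set, 1426334_a_at, stayed under log2 4 on every array (highest 2.77) and was not tested. The differences of the 4 tested Bcl2l11 probe sets spanned 2.16, against a median span of 1.24 in the 604 genes with at least 4 tested probe sets, where that span stands at the 83.8th percentile. Of the 2088 genes with several tested probe sets and at least 1 call, 85.9% also had a tested probe set that was not called. The fall of Bcl2l11 therefore rests on 1435448_at and 1456006_at, with the brightest probe set apart.

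Bbc3 encodes Puma, a BH3-only protein induced by p53 and by FoxO factors, and is read by 1 probe set. It gave 6.86, 6.74 and 5.42 in Lower-SP against 8.24, 8.09 and 7.68 in Upper-SP. The highest Lower-SP value lay under the lowest Upper-SP value. The means were 6.34 ± 0.80 and 8.004 ± 0.29 (SD, n = 3), a difference of -1.67 (SE 0.40, 3.17-fold, adjusted p = 0.020). The difference was negative in all 20 alternatives run on this probe set, from -2.59 without Lower-SP arrays 1 and 2 to -1.20 without Lower-SP array 3. The call was lost in 4 of them: without Upper-SP array 1 (adjusted p = 0.092), without Upper-SP array 2 (0.069), with no filter on dim probe sets (0.071) and with unmoderated statistics (0.10), while the lowest was 0.00060. Bbc3 read lowest on array 3 of both fractions. So did the plasma cell gene Igha, which fell by 4.42 (limma adjusted p = 0.024), and the neutrophil gene S100a8, which rose by 4.17. Without Lower-SP arrays 1 and 2 the Igha difference was -7.41. The part of other cells in the Bbc3 difference was not tested.

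Because Bcl2l11 and Bbc3 are both textbook FoxO targets, family promoter windows were searched for the FoxO core, the only motif searched. Only the windows that hold it are shown. The windows run from 250 bases before to 50 after an annotated start (RefSeq, GRCm38.p6), and the capitals mark the FoxO core TGTTTAC searched on both strands. Of 15 windows of 9 family genes, 2 hold the core, 1 of the 2 windows of Bcl2l11 and 1 of the 3 of Bbc3, and 3.65% of all 32851 windows searched hold it. In the Bcl2l11 window, chr2:128125788-128126087 (plus strand), the match covers bases 24 to 30 counted from the 5′ end of the window and reads on the opposite strand. In the Bbc3 window, chr7:16310011-16310310 (plus strand), it covers bases 84 to 90. A match is a run of letters and not a measured binding site.
Bcl2l11: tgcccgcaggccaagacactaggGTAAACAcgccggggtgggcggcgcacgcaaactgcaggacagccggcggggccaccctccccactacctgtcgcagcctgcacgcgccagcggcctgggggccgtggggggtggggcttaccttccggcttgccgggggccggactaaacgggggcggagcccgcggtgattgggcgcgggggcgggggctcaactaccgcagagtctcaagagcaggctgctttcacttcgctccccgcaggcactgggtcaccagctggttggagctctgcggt
Bbc3: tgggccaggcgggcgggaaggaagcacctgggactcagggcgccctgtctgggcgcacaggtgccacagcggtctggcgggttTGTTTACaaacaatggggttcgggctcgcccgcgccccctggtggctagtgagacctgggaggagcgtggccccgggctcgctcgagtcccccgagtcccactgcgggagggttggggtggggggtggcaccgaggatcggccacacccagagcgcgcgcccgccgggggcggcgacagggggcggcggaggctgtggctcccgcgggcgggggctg

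Both windows are rich in G and C, at 71.0% and 74.7%, against a median of 52.7% over all windows. Of the FoxO genes on the fixed list of regulators, Foxo1 rose in Lower-SP by 1.21 (SE 0.22, adjusted p = 0.0087), reading 8.18, 8.37 and 7.91 against 7.09, 6.66 and 7.08. Another Foxo1 probe set was called higher too (1.24, adjusted p = 0.048). Foxo3, the FoxO factor required for stem cell maintenance, read 9.27, 9.46 and 9.53 against 9.29, 9.17 and 9.15 (difference 0.21, adjusted p = 0.31). In Lower-SP, Bbc3 and the Bcl2l11 probe sets 1435448_at and 1456006_at fell and Foxo1 transcript rose. The brightest Bcl2l11 probe set did not fall (difference 0.01). A link between these genes and Foxo1 was not tested, and FoxO activity was not measured. The Foxo1 call was lost without Lower-SP arrays 1 and 2 (adjusted p = 0.087, range from 0.00055).

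The other BH3-only genes were dim or did not pass. Bad, which is held inactive by 14-3-3 proteins when growth factors signal, read 8.58, 8.68 and 8.62 in Lower-SP and 8.84, 8.82 and 8.50 in Upper-SP at its brighter probe set. The groups overlapped, the difference was -0.09 (95% interval -0.48 to 0.30, adjusted p = 0.71), and its sign turned with cyclic loess (0.11) and quantile normalization (0.04). The dimmer Bad probe set read 5.51, 5.06 and 5.60 against 6.24, 5.97 and 5.51 (-0.52, 95% interval -1.16 to 0.13, adjusted p = 0.20). Only with array weights was it called (-0.91). Pmaip1, the p53 target Noxa that acts on Mcl1, lay under log2 4 on every array but Upper-SP array 2 (4.18) and was not tested. Bid, which caspase-8 cleaves into an activator of Bax and Bak, was not tested at any of its 3 probe sets. Its brightest one, 1417045_at, read 3.41, 3.47 and 3.43 in Lower-SP and 4.28, 4.34 and 3.63 in Upper-SP, so the groups did not overlap but 4 of the 6 values lay under log2 4.

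Bak1, the effector that sits on the mitochondrial outer membrane, was tested at 1 of its 2 probe sets. It read 4.88, 4.49 and 4.92 in Lower-SP and 5.12, 5.19 and 4.83 in Upper-SP, close to the lowest level tested. The groups overlapped and the difference was -0.28 (95% interval -0.81 to 0.25, adjusted p = 0.38). It stayed negative and uncalled in all 19 alternatives that tested it.

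**Figure D2:**
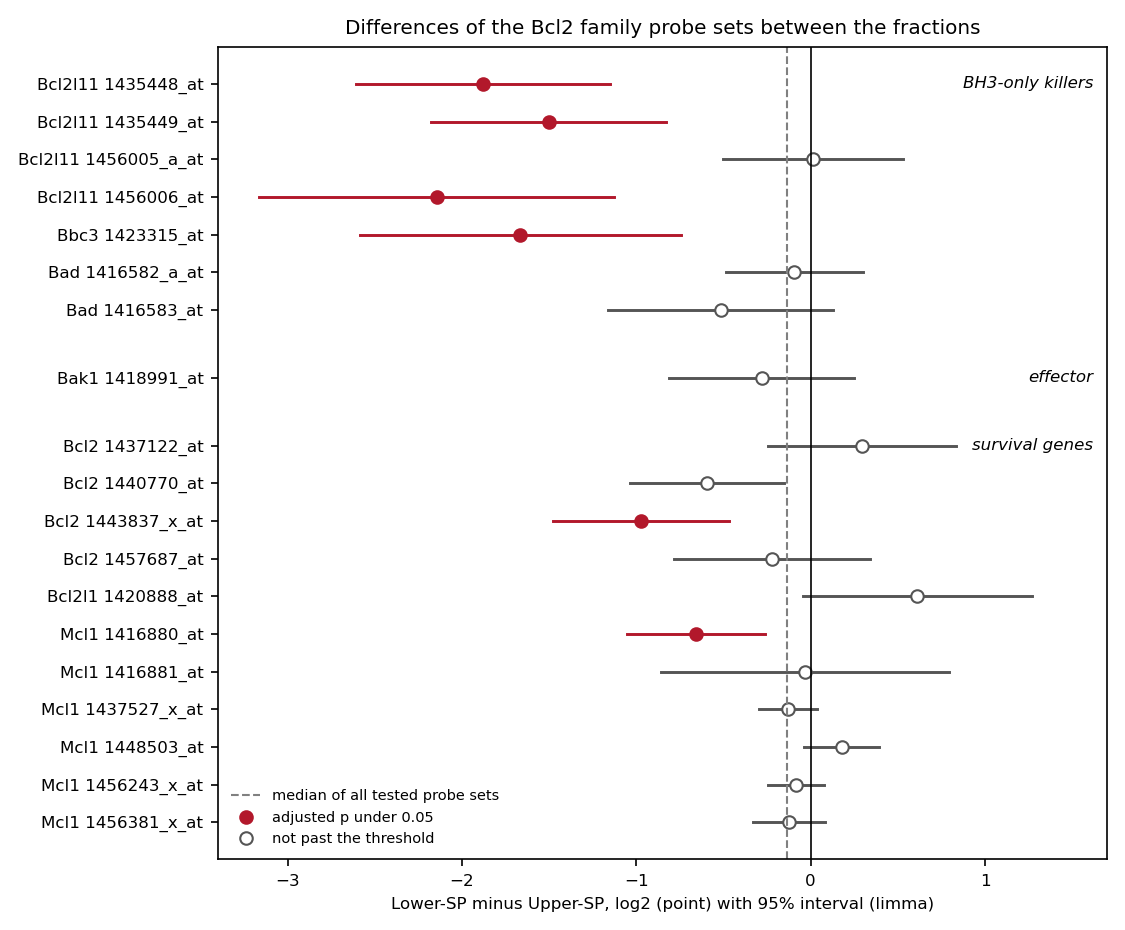
Difference of each tested family probe set (Lower-SP minus Upper-SP, log2) with its 95% limma interval, grouped by role, filled red where adjusted p lies under 0.05; the dashed line is the median of all tested probe sets, -0.14. The red points of the BH3-only group lie between -2.15 and -1.50 and those of the survival genes at -0.97 and -0.66.

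Among the survival genes, 2 of 11 tested probe sets fell and 0 rose, against 4 of 7 and 0 in the BH3-only genes, or 3 of 6 without 1435449_at. The 4 are 3 probe sets of Bcl2l11 and 1 of Bbc3, so they are not 4 separate genes. Read through the brightest probe set, only Bbc3 fell among the tested BH3-only genes, and no survival gene did. Of all tested probe sets 17.5% fell and 10.7% rose, so the share in the survival genes was near that of all. The difference between these shares was not tested. Bcl2, the founding member, was tested at 4 of 5 probe sets, and only 1443837_x_at fell. It read 6.94, 7.52 and 7.09 in Lower-SP and 8.29, 8.09 and 8.08 in Upper-SP, without overlap (-0.97, SE 0.22, 1.96-fold, adjusted p = 0.016). The call was lost with unmoderated statistics (0.055) and without Lower-SP array 1 (0.051), Upper-SP array 1 (0.086) or Upper-SP array 2 (0.055), with 0.0015 as the lowest value over the alternatives. Without Lower-SP arrays 1 and 2, with a single Lower-SP array in the fit, the difference was -1.06. The alternative without _x_at and _s_at probe sets left 1443837_x_at out, and it called none of the other tested Bcl2 probe sets.

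The brightest Bcl2 probe set, 1440770_at, read 10.9, 10.4 and 10.4 in Lower-SP and 10.9, 11.4 and 11.1 in Upper-SP. Lower-SP array 1 (10.86) lay just under Upper-SP array 1 (10.91), and the difference of -0.59 (95% interval -1.04 to -0.15) stopped short of the threshold at adjusted p = 0.052 (0.038 to 0.16 over the alternatives, called in 3 of 20). At 1457687_at the groups overlapped (7.53, 8.30 and 8.01 against 8.27, 7.95 and 8.28, adjusted p = 0.52). At 1437122_at the sign was positive (0.30, 95% interval -0.24 to 0.83, adjusted p = 0.37), and the RefSeq mRNA probe set 1422938_at lay under log2 4 on every array. The Bcl2 probe sets therefore do not give 1 common value.

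Mcl1, the short-lived survival protein on which stem cells depend, was tested at all 6 of its probe sets. The probe set 1416880_at fell, with 10.6, 10.4 and 10.6 in Lower-SP and 10.95, 11.5 and 11.1 in Upper-SP (-0.66, SE 0.17, 1.58-fold, adjusted p = 0.025). The groups did not overlap, yet this call was lost in 11 of 20 alternatives (adjusted p 0.015 to 0.19). Cyclic loess (-0.45), quantile normalization (-0.50) and the replicate block (adjusted p = 0.063) were among them, as was the omission of Lower-SP arrays 1 and 2 (-0.57).

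The other 5 Mcl1 probe sets did not pass. The 3 ending in _x_at read 14.7 to 15.1 in Lower-SP and 14.9 to 15.2 in Upper-SP, with differences of -0.13, -0.08 and -0.12. Their 95% intervals ran from -0.33 to 0.08. The highest value of any probe set was 17.05, and how far signal still follows RNA amount at these levels was not tested. At 1448503_at all Lower-SP values (12.5, 12.3 and 12.4) lay above all Upper-SP values (12.18, 12.20 and 12.26). That difference was 0.18 (adjusted p = 0.19) and was called with cyclic loess (0.35) and quantile normalization (0.33). At 1416881_at Lower-SP array 3 stood apart (10.1, 9.91 and 11.4 against 10.6, 10.6 and 10.2, difference -0.03), and without Lower-SP arrays 1 and 2 the difference became 0.88 (adjusted p = 0.053, the lowest of its alternatives).

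Bcl2l1, whose main product Bcl-xL protects maturing blood cells, was tested at 1 of its 4 probe sets. It read 6.93, 7.56 and 6.57 in Lower-SP and 6.40, 6.40 and 6.43 in Upper-SP. All Lower-SP values lay above all Upper-SP values, but the difference of 0.61 (95% interval -0.05 to 1.27) did not pass (adjusted p = 0.14, range 0.0075 to 0.71). The highest values came from the Lower-SP arrays with the most neutrophil transcript: it was called without Lower-SP array 3 (0.84) and with array weights (0.84), and was 0.16 without Lower-SP arrays 1 and 2. The part of neutrophil RNA in this difference was not tested. The other 3 Bcl2l1 probe sets read under 2.5 on every array.

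**Figure D3:**
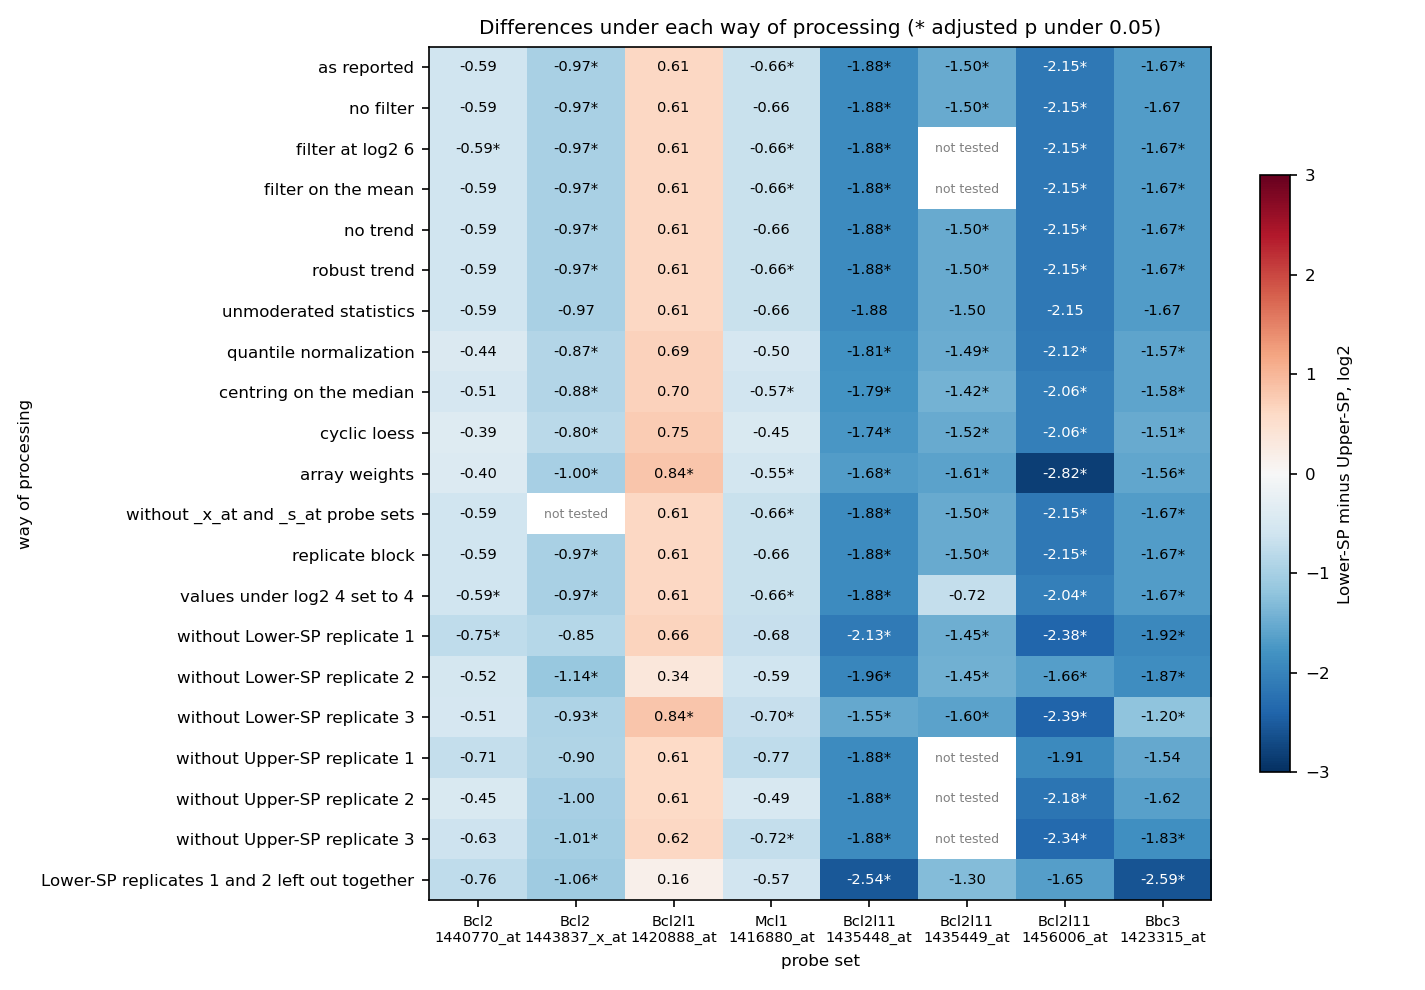
Log2 difference (Lower-SP minus Upper-SP, colour and number) of 8 family probe sets in columns under each way of processing in rows; an asterisk marks adjusted p under 0.05 and white cells are those not tested. The column of Bcl2l11 1435448_at carries an asterisk in every row but unmoderated statistics, while Mcl1 1416880_at loses it in 11 rows.

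In 10 of the 19 tested family probe sets the Lower-SP and Upper-SP values did not overlap, 7 lower and 3 higher in Lower-SP, beside 27.9% and 18.2% of all tested probe sets. The 7 include Bcl2l11 1435449_at, which entered the test only through Upper-SP, so its lack of overlap was fixed by the filter. The 3 higher ones (Bcl2l1 1420888_at, Bcl2 1437122_at and Mcl1 1448503_at) are all of survival genes, and none of them passed the limma threshold with the deposited scaling.

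A shift of a whole array cancels when 2 genes are read on the same array, so the change of one member against another was compared between fractions over 7 pairs of brightest probe sets. Mcl1 minus Bbc3 was 8.14, 8.21 and 9.68 in Lower-SP and 6.83, 6.96 and 7.49 in Upper-SP, so the gap between them was 1.58 wider in Lower-SP, without overlap. The Mcl1 probe set itself differed by -0.08, so this pair largely restates the Bbc3 difference. Bcl2l1 minus Bad was -1.65, -1.12 and -2.05 in Lower-SP and -2.45, -2.42 and -2.07 in Upper-SP, 0.71 higher in Lower-SP, again without overlap. For both pairs the exact two-sided permutation p was 0.10, the smallest that 3 arrays against 3 can give (0.35 after Benjamini-Hochberg adjustment over the 7 pairs). In the other 5 pairs the groups overlapped (exact permutation p of 0.20 to 0.80). Bcl2 minus Bcl2l11 differed by -0.61 with the brightest probe sets and by 1.005 with the mean of all tested probe sets of each gene. Mcl1 minus Bcl2l11 went from -0.10 to 1.24 in the same way, so the standing of Bcl2l11 against the survival genes turned on which of its probe sets was read. The Bcl2l11 mean includes 1435449_at, which was tested only because Upper-SP was higher, so the values 1.005 and 1.24 are descriptions.

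The neighbours of the family on the death pathway were read through the brightest probe set of each gene. Among 6 tested further Bcl2 relatives, 1 rose and 1 fell, beside 7.05% of all genes higher and 20.7% lower, with a median of -0.28 beside -0.24 for all genes. Bnip3, a BH3-containing mitophagy receptor induced by low oxygen, read 7.07, 6.58 and 8.16 in Lower-SP and 8.85, 8.72 and 8.53 in Upper-SP (-1.42, SE 0.38, adjusted p = 0.028). Its call was lost in 9 of 21 alternatives, among them the replicate block and the omission of Lower-SP arrays 1 and 2 (-0.53). Bcl2l13, a mitochondrial outer membrane relative, read 7.59, 7.54 and 8.39 against 7.01, 6.52 and 6.73 (1.09, SE 0.29, adjusted p = 0.027), with -0.05 at another probe set. The survival gene Bcl2l2 (-0.45, adjusted p = 0.095) and the effector relative Bok (0.62, adjusted p = 0.17) did not pass. Bcl2l10, Bik and Hrk stayed under the level for testing.

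Of 13 tested apoptosome, caspase and mitochondrial pore genes, 3 fell and 0 rose (limma; 4 and 0 at an unadjusted p under 0.05), close to the share of all genes (20.7% lower, 7.05% higher), with a median of -0.31. Casp8, the initiator downstream of death receptors, fell by 0.76 (adjusted p = 0.033). Casp2, an initiator linked to DNA damage and mitotic stress, fell by 0.76 as well (adjusted p = 0.020). Vdac2, the outer membrane channel that holds Bak, fell by 0.68 (10.4, 10.2 and 10.3 against 11.2, 10.9 and 10.8, adjusted p = 0.013). Over 21 alternatives the call was kept in 10 for Casp8, 14 for Casp2 and 17 for Vdac2. The Casp8 and Casp2 calls were lost with cyclic loess, and all 3 were lost without Lower-SP arrays 1 and 2, although the differences were then -1.01 for Casp8, -0.93 for Casp2 and -0.71 for Vdac2. Cycs, the cytochrome c gene, read 11.7, 11.8 and 11.8 against 11.38, 12.03 and 11.70 (0.06, adjusted p = 0.81). Casp9, Apaf1 and Casp6 did not pass.

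Of 9 tested inhibitor-of-apoptosis genes and their antagonists, 2 rose and 1 fell, beside 7.05% of all genes higher and 20.7% lower, with a median of -0.32 beside -0.24. Birc6, the giant inhibitor that also conjugates ubiquitin, read 8.91, 8.80 and 9.07 in Lower-SP and 7.83, 7.83 and 7.85 in Upper-SP (1.09, SE 0.16, adjusted p = 0.0049). It passed in all 21 alternatives (adjusted p up to 0.035). Of its other 5 probe sets 1427488_a_at (2.31) and 1442959_at (1.63) were called higher too, and 1437789_at (1.55), 1419563_at (0.28) and 1419562_at (-0.31) did not pass. Naip2, a sensor of bacterial proteins in inflammasomes, rose by 0.76 (adjusted p = 0.049), and Diablo, the mitochondrial antagonist of these inhibitors, fell by 0.69 (adjusted p = 0.049). Both calls were lost in over 10 of 21 alternatives, Diablo with each other scaling. Xiap, the direct caspase inhibitor, did not pass at its brightest probe set (-0.40, adjusted p = 0.13), and another one, 1456088_at, was called 1.68 higher (chosen after its values were seen).

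**Figure D4:**
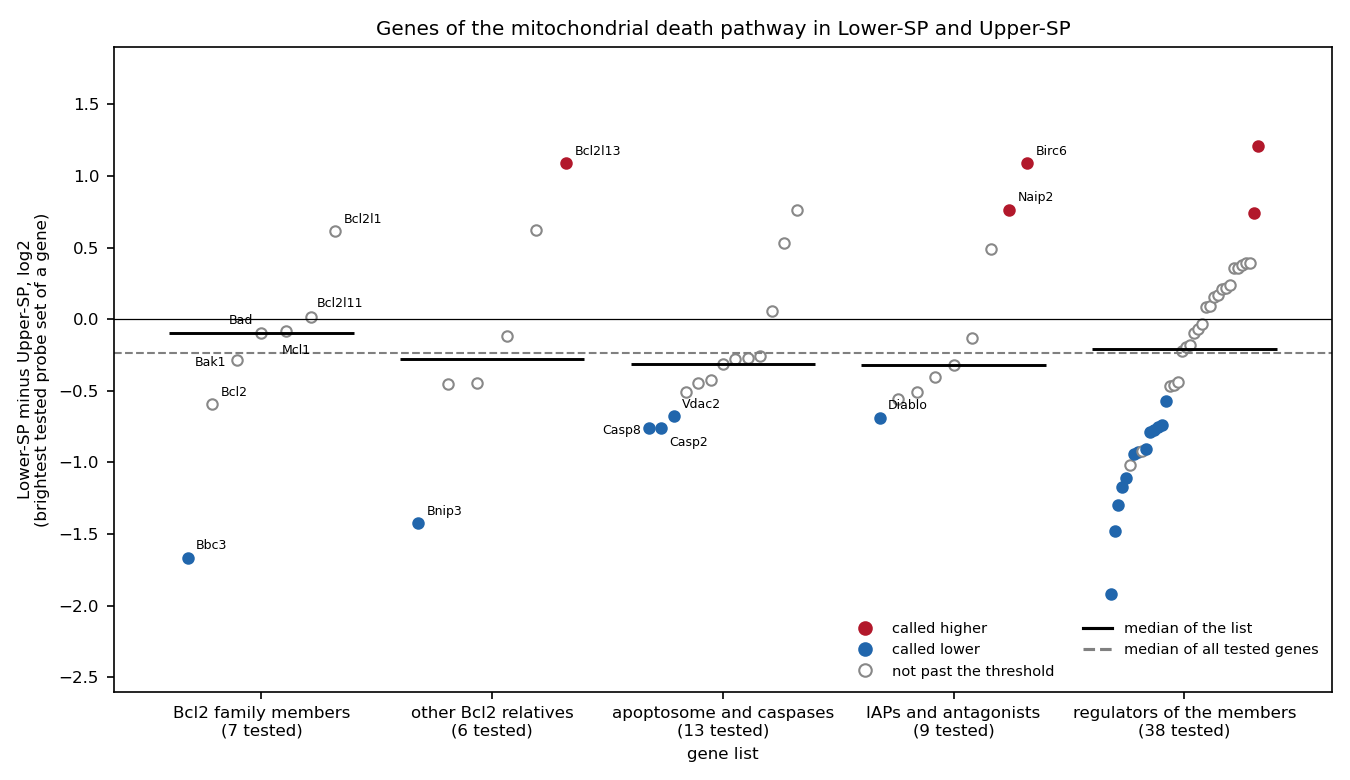
Log2 difference (Lower-SP minus Upper-SP) of each tested gene in 5 lists, read through its brightest probe set, sorted within a list; filled points have adjusted p under 0.05, black bars are list medians and the dashed line is the median of all tested genes, -0.24. Most points of each list lie within 1 log2 unit of 0, and Bbc3 (-1.67) is the filled point among the family members.

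Among 38 tested genes that transcribe, stabilise, phosphorylate or tether family members, 2 rose and 13 fell, beside 7.05% of all genes higher and 20.7% lower, with a median of -0.21 beside -0.24. The largest falls were in Gfi1 (-1.92), a transcriptional repressor that limits how often stem cells divide, and in the calcium channels Itpr2 (-1.48) and Itpr3 (-1.30), on which Bcl2 acts at the endoplasmic reticulum. Tcf3, the E protein gene of lymphoid development, fell by 1.17, and Pim2, a kinase that phosphorylates Bad, fell by 1.11. Gfi1 read 5.53, 7.15 and 6.69 in Lower-SP and 8.18, 8.51 and 8.44 in Upper-SP, without overlap (adjusted p = 0.012). Itpr2 read 6.13, 5.82 and 5.97 against 7.69, 7.10 and 7.56 (adjusted p = 0.0060), and another of its probe sets differed by -0.34 without passing. Without Lower-SP arrays 1 and 2 the Itpr3 difference was -1.29 and the Tcf3 difference -0.60, both no longer called, and the Pim2 call was lost with cyclic loess. Without those arrays 1 of 37 rose and 4 fell (13.5% called, beside 12.8% of all genes). The p53 gene Trp53 and the Bcl2a1 genes were not analysed here.

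The genes whose pattern over the 6 arrays was nearest to the brightest Mcl1 probe set were Mta2 (Pearson r = 0.988), Snx21 (0.988) and Zfp236 (0.981). For Bcl2 they were Hnrnph2 (0.990), Cep70 (0.982) and Mir22hg (0.982), and for Bcl2l11, at its brightest probe set, Racgap1 (0.971), Spns3 (0.969) and Vps25 (0.965). These values describe 6 arrays that share their scaling, picked as the highest among 9460 genes. Of the 9 genes, Hnrnph2 was called changed between the fractions (-0.61, adjusted p = 0.041).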

How the data were processed

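The study hybridised RNA of sorted Lower-SP and Upper-SP cells, 3 arrays each, after repeated rounds of in vitro transcription per the labels, which can affect how well probes far from the 3′ end read. The deposited values are log2 expression made by the authors with GCRMA (GCOS 1.0 and GCRMA are named in the submitters' processing notes, with no parameters), a method that estimates background from probe base content, puts the arrays on 1 common scale and merges each set's probes. The promoter windows come from RefSeq on GRCm38.p6. Arrays have no depth; 19317 to 19666 of 45037 probe sets lay above log2 4 per array, and across probe sets the correlation r between arrays was 0.981 to 0.996 for the same fraction and 0.968 to 0.978 for different ones.

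Probe sets were named from the array annotation (34945 with 1 symbol, 932 with several, 9160 with none; 64 control probe sets left out), and all 29 family probe sets matched current gene records by Entrez ID with 0 symbols to update. The test was limma 3.58.1 under R 4.3.3 (lmFit, eBayes with a trend, all 6 arrays, no block, two-sided; residual df 4, prior df 3.80), with Benjamini-Hochberg adjustment over the tested probe sets. A gene was read through its tested probe set with the highest mean. Where only 1 group mean lay under log2 4, values under 4 were set to 4 and the fold is a lower bound. The labels do not say whether same-numbered arrays of the 2 fractions share a pool of mice or a sorting day. Over all tested probe sets their deviations from the group means correlated at -0.05, -0.03 and -0.02. This cannot exclude a shared pool that shows in few genes. The mean of the neutrophil, B and plasma cell, monocyte and macrophage, T/NK and progenitor lists was lowest on array 3 of both fractions. The means of the stem cell and megakaryocyte lists were highest on array 3 in Lower-SP and lowest on it in Upper-SP. The erythroid mean, under log2 4, was highest on array 3 of both. Whether this reflects a shared pool or day was not tested. Among single genes, Igha of plasma cells and S100a8 of neutrophils read lowest on array 3 of both fractions. Cd14 read highest on array 3 in Lower-SP and lowest in Upper-SP. The arrays were not treated as paired, and the replicate block is given among the alternatives.

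The family members, the gene lists and the alternatives were chosen with earlier results of these data known. Named are all family probe sets and the 3 genes nearest in pattern to each of the 3 brightest members. Of the relatives, apoptosome genes, inhibitors and regulators, up to 6 called genes with the largest difference are named. Further genes named as not called were chosen after their values were seen. The cell type lists were named in part. The same rule, or the 2 smallest p where fewer than 2 were called, also gave S100a9 (3.90) and Csf1r (1.06), called higher, and Nkg7 (-1.14), called lower. Chil3, Lcn2 and Gp1bb were called higher but entered the test only through Lower-SP. Jchain and Vwf did not pass. Alternatives were other filters (none, log2 6, the mean), no trend, a robust trend, unmoderated statistics, quantile normalization, centring, cyclic loess, array weights, no _x_at or _s_at probe sets, the replicate block, values under 4 set to 4, the mean of a gene's probe sets, each array left out and, added after seeing the data, Lower-SP replicates 1 and 2 left out together.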

Additional observations from a re-analysis of the deposited data

How the results depend on the processing

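Of the 6 family calls, Bcl2l11 1435448_at kept its side of the threshold in 19 of 20 alternatives, Bcl2l11 1456006_at in 17 of 20 and Bbc3 in 16 of 20. Bcl2 1443837_x_at kept it in 15 of 19, Bcl2l11 1435449_at in 12 of 15 and Mcl1 1416880_at in 9 of 20. None of the 6 turned its sign. Bcl2l11 1435449_at was tested only because Upper-SP was higher, so its sign was fixed by the filter and its count is a description. Cyclic loess moved the median difference of all genes from -0.24 to -0.09 and the share of higher among called probe sets from 37.9% to 53.7%, and quantile normalization moved them to -0.14 and 47.6%. With no filter, limma called 2931 probe sets, 1318 genes, 0 family genes (3 at an unadjusted p under 0.05), 0 further Bcl2 relatives (3), 1 apoptosome or caspase gene, 1 inhibitor gene and 8 regulators. With unmoderated statistics the counts were 1967 probe sets, 892 genes, 0 family probe sets (7 at an unadjusted p under 0.05), 0 family genes (1), 0 relatives (3), 0 apoptosome or caspase genes (3), 1 inhibitor gene and 5 regulators. With array weights they were 10728 probe sets, 5268 genes, 2 family genes, 5 relatives and 9 apoptosome or caspase genes. The family genes called numbered 2 with the filter at log2 6, 2 with values under 4 set to 4 and 2 with the mean of a gene's probe sets, where 1 relative was called. Cyclic loess left 1 apoptosome or caspase gene. The replicate block, a pairing that the labels neither give nor exclude, left 4180 probe sets, 1 relative and 1 inhibitor gene. Without Lower-SP replicates 1 and 2 there were 2610 probe sets, 1192 genes, 3 family probe sets, 1 relative, 0 apoptosome or caspase genes (limma, 4 at an unadjusted p under 0.05) and 5 regulators. Leaving out each array in turn gave 1605 to 6216 probe sets, 682 to 3040 genes, 1 to 7 family probe sets, 0 to 2 family genes, 0 to 3 relatives, 0 to 4 apoptosome or caspase genes, 1 to 2 inhibitor genes and 4 to 18 regulators.

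Of the pairs read within an array, Bcl2 minus Bcl2l11 became 1.005 and Mcl1 minus Bcl2l11 1.24 with the mean of a gene's probe sets. That Bcl2l11 mean includes 1435449_at, which was tested only through Upper-SP. Without Lower-SP replicates 1 and 2, Bcl2 minus Bak1 became -0.64, Mcl1 minus Bbc3 2.58 and Mcl1 minus Bcl2l11 0.41. With each array left out they ranged from 1.08 to 1.85 for Mcl1 minus Bbc3, from 0.46 to 0.93 for Bcl2l1 minus Bad and from -0.35 to 0.09 for Mcl1 minus Bcl2l11. Among the family probe sets only uncalled ones turned their sign. Bad 1416582_a_at became 0.035 with quantile normalization and 0.11 with cyclic loess. Bcl2l11 1456005_a_at became -0.041 or -0.15 when Lower-SP replicate 1 or 2 was omitted, -0.12 when Upper-SP replicate 2 was, and -0.42 when Lower-SP lost both. Mcl1 1416881_at became 0.14 with quantile normalization, 0.057 with centring, 0.18 with cyclic loess, 0.16 and 0.23 without Lower-SP replicate 1 or 2, 0.013 and 0.038 without Upper-SP replicate 1 or 2 and 0.88 without both Lower-SP replicates, with a range of -0.49 to 0.23 over single omissions. Mcl1 1456243_x_at became 0.036 with quantile normalization, 0.0033 with centring and 0.0066 with cyclic loess, and Mcl1 1456381_x_at 0.0073 without both Lower-SP replicates. The causes were not tested. Signal over background limits Pmaip1, Bid and Bak1, whose probe sets read near or under log2 4.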
